A study of Mus musculus with 24 samples.

Results

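The proteasome subunit genes were taken as the autosomal protein-coding genes with a curated RefSeq transcript whose symbol is Psma, Psmb, Psmc, Psmd or Psme followed by a number. There were 42 of these among 20021 autosomal protein-coding genes. They comprised 7 alpha-ring genes and 7 beta-ring genes of the constitutive core particle, the 3 immunoproteasome genes Psmb8, Psmb9 and Psmb10, 2 core genes known from other tissues (Psma8 and Psmb11), 9 base genes, 8 lid genes, 2 assembly chaperones of the base and 4 activators. The data were H3K27ac ChIP-Seq peaks of isolated quadriceps myofibers from male and female C57BL/6J mice that were 10 weeks old when treatment began. Vehicle-treated mice received DMSO in PBS daily by i.p. injection. Weekly prednisone–treated mice received 1 mg/kg prednisone on 1 day of each week and vehicle on the other days, for 5 prednisone injections over 4 weeks, and muscles were taken 4, 6 or 8 days after the last of them. Per group, 2 H3K27ac libraries and 1 input library were sequenced and 1 peak list was deposited (8 lists in all), so the comparisons between groups have no replicate error and no test. The preparation was whole fibers after collagenase digestion and filtering, which can retain other cells of muscle.

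The proteasome degrades proteins that carry ubiquitin. Its core particle is a stack of alpha rings, which gate the entry, and beta rings, which hold the proteolytic sites, and it is capped by a regulatory particle made of a base of ATPases, which unfold the substrate, and a lid, which removes ubiquitin. In cells exposed to interferon, the catalytic subunits Psmb5, Psmb6 and Psmb7 are replaced by Psmb8, Psmb9 and Psmb10. In skeletal muscle the ubiquitin-proteasome system carries out much of the protein loss of atrophy, which daily glucocorticoids can provoke. H3K27ac is an acetylated histone residue found at active promoters and enhancers, so a peak at a start marks a promoter as active and does not measure the amount of RNA.

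Sequence just before the start follows for 8 of these genes, chosen because the peaks described here lie over or next to it. They are the 3 immunoproteasome genes, the constitutive counterpart Psmb5, 3 genes that had a peak in every list (Psmd11, Psmd12 and Psme4) and Psmd14, the constitutive gene with a peak in the fewest lists. The sequences come from RefSeq (GRCm38.p6, the assembly of mm10), run 5′ to 3′ on the strand of the gene and end at the base before the start. Capitals mark matches on either strand to CCGGAAG (a core bound by ETS factors), CCAAT (NF-Y), TGACNNNGC (the core of the antioxidant response element bound by Nfe2l1 and Nfe2l2), TATAAA (the TATA box) or ACANNNTGT (a consensus of the glucocorticoid receptor, GR).
Psmb5, chr14:54617996-54618195, minus strand: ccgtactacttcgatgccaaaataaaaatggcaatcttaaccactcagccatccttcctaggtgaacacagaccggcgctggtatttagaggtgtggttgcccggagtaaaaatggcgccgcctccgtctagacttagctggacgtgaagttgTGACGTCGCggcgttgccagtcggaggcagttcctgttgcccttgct
Psmb8, chr17:34197995-34198194, plus strand: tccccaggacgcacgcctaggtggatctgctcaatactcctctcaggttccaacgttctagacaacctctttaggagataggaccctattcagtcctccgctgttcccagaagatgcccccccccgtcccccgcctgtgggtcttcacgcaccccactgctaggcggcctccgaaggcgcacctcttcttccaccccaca
Psmb9, chr17:34187331-34187530, minus strand: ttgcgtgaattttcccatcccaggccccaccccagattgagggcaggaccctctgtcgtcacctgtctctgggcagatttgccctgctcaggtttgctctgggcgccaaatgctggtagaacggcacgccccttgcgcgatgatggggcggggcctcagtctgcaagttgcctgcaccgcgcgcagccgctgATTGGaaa
Psmb10, chr8:105938393-105938592, minus strand: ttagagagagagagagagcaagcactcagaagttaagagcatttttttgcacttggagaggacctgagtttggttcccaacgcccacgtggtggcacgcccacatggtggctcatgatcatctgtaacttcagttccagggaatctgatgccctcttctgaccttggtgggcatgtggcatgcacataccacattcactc
Psmd11, chr11:80428415-80428614, plus strand: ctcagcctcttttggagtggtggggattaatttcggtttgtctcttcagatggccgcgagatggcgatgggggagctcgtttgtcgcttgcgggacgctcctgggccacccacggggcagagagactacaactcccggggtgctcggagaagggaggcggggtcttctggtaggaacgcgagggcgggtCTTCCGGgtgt
Psmd12, chr11:107479328-107479527, plus strand: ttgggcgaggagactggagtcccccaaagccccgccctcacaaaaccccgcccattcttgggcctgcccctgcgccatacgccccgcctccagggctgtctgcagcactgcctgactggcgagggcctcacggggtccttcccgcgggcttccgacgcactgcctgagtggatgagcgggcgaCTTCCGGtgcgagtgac
Psme4, chr11:30771575-30771774, plus strand: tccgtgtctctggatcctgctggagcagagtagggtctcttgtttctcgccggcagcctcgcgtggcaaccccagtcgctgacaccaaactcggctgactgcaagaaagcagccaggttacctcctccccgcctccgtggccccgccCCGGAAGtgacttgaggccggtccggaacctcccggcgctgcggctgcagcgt
Psmd14, chr2:61711494-61711693, plus strand: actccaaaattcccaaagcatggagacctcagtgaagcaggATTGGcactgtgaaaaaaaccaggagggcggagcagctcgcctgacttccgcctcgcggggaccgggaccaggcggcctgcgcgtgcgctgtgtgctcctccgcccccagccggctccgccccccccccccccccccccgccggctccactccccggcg
Psmd11 and Psmd12 each carried an ETS match 11 and 17 bases before the start, on the reverse strand. The Psme4 match on the forward strand lay 53 bases before the start, and a TGACNNNGC match of Psme4 that crossed the start is not in capitals. In Psmb5 the capitals mark a TGACNNNGC match 47 bases before the start. Psmb9 had a CCAAT match on the reverse strand 8 bases before the start, in the sequence that it shares with Tap1. No match fell in the stretches shown for Psmb8 and Psmb10.

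Over the whole window from 250 bases before to 50 bases after the start, sequence was matched for 35 of the 42 genes (Psma8, Psmb1, Psmb2, Psmb7, Psmc3, Psmd3 and Psmd7 were not matched). CCGGAAG was found in 12 of 35 proteasome genes (34.3%) and in 13.6% of 16010 autosomal genes with a window. Genes with CpG-rich windows held it in 21.2% of cases, and ribosomal protein genes in 42.1%. TGACNNNGC was found in 6 of 35 proteasome genes (Psmb5, Psmb6, Psmc6, Psmd9, Psmd12 and Psme4) and in 14.9% of all genes. CCAAT was found in 13 of 35 and in 42.2% of all genes. TATAAA was found in 4 of 35 (Psmb4, Psmb8, Psmd1 and Psmd6) and in 14.7% of all genes, and ACANNNTGT in 0 of 35 and in 6.90% of all genes. ETS and CCAAT matches were both found for 5 proteasome genes, and ETS and TGACNNNGC matches for 3. Of the 5, Psma6 held its ETS and its CCAAT matches in the windows of different starts. These matches are descriptions of the sequence and were not tested.

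The lists rested on 7.52 to 50.5 megatags (M) of H3K27ac reads and held 17482 to 123249 peaks. The male day 4 list had the fewest of each, and the female day 6 list had the most peaks. The peak caller's lowest score in a list ranged from 7 to 25, so the lists were not called to an equal depth. Of 8 myofiber markers, 5 to 8 had a peak within 1 kb of a start in every list, and 5 of them, Ckm among these, had one in all 8. Of 4 leukocyte markers, 0 to 2 had a peak, after prednisone in females (days 4, 6 and 8) and for vehicle in males. Ptprc and Itgam had none in any list. Endothelial markers had a peak at 0 to 3 of 3 genes and fibroblast markers at 0 to 3 of 3. Pax7 of satellite cells had a peak only in the female day 8 list, as did Plin1 of adipocytes, and Adipoq had none. The part of these cells in the proteasome peaks was not tested.

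Most proteasome genes had an H3K27ac peak within 1 kb of a start in every group. In females the number was 32 of 42 for vehicle, 40 on day 4, 41 on day 6 and 41 on day 8. In males it was 41 for vehicle, 30 on day 4, 31 on day 6 and 32 on day 8. Over all autosomal genes, the share with such a peak was 30.2%, 55.3%, 71.1% and 63.7% in the female lists and 56.5%, 32.9%, 32.9% and 36.6% in the male lists, in the same order. The proteasome shares, from 71.4% to 97.6%, were above the share of all genes in each of the 8 lists. Both rose from vehicle to day 4 in females and fell from vehicle to day 4 in males.

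A peak within 10 kb of a start was found for 38, 41, 42 and 41 proteasome genes in the female lists and for 41, 35, 34 and 35 in the male lists. The shares of all genes were 46.8%, 68.7%, 79.6% and 73.2% in females and 74.6%, 43.2%, 45.5% and 45.9% in males. In the female day 6 list, every proteasome gene had a peak at this distance. Among the proteasome genes without a promoter peak, 6 of 10 in the female vehicle list and 5 of 12 in the male day 4 list had a peak between 1 and 10 kb. Over all genes, the share with a peak rose from 30.2% within 1 kb to 46.8% within 10 kb for female vehicle. On day 4 in males it rose from 32.9% to 43.2%. Some of these distal peaks lay at the start of another gene, such as the Psmb5 peak counted for Psmb11 in both lists.

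Active promoters are often rich in CpG, so the genes were also divided by the CpG content of the window around the start (GC above 50% and an observed over expected CpG ratio above 0.6), a division chosen after the counts were seen. The window of a gene with several starts was that of the most upstream start. For Psma6 this is not the start with the peaks, and for Psmc2 it had the strongest peak in 2 of 8 lists. By this measure 29 of the 42 proteasome genes were CpG-rich (69.0%), against 47.4% of all genes. Of the 9492 CpG-rich genes, 46.0% had a promoter peak in the female vehicle list and 52.5% in the male day 4 list, and of the CpG-rich proteasome genes 79.3% and 75.9% did. In the female day 6 list these shares were 94.4% and 100%. The 77 cytosolic ribosomal protein genes, which are also expressed in nearly all cells, had a promoter peak in 68.8% to 98.7% of cases and were above the proteasome share in 3 of the 8 lists. The 13 proteasome genes that were not CpG-rich included all 3 immunoproteasome genes, and 61.5% to 100% of the 13 had a promoter peak, against 15.3% to 50.1% of all such genes.

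**Figure D1:**
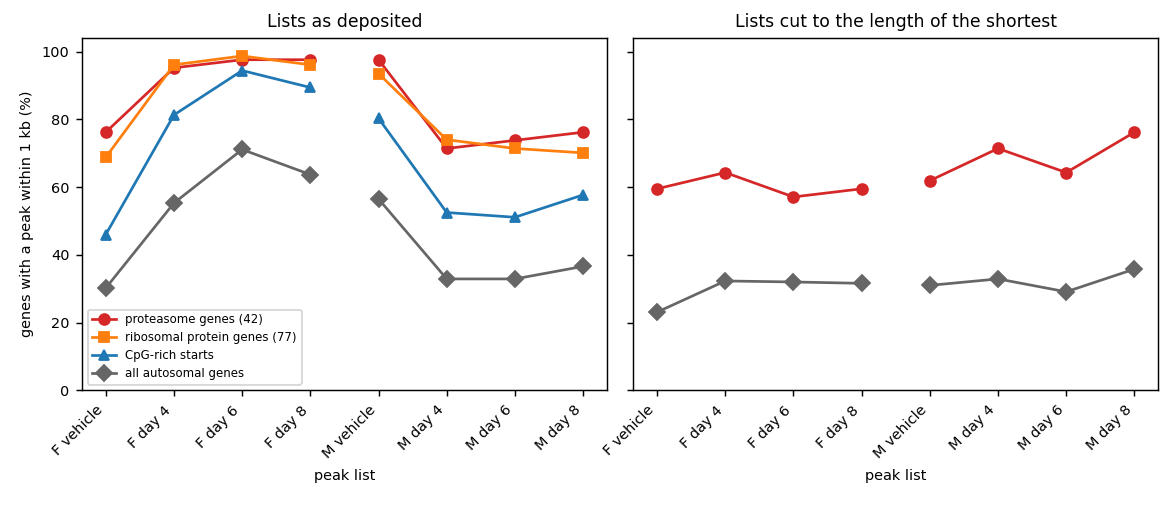
Share of genes with an H3K27ac peak within 1 kb of a start (y axis, percent) in each of the 8 peak lists (x axis; F, female; M, male), for the deposited lists on the left and for lists reduced to the 17482 peaks with the highest score on the right. On the left the proteasome genes (red) lie above all genes (gray) in every list, and on the right they lie between 57.1% and 76.2%.

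The lists differed in length, and with every list reduced to the 17482 peaks with the highest score the direction of the change turned in males. The number of proteasome genes with a promoter peak was then 25, 27, 24 and 25 in the female lists and 26, 30, 27 and 32 in the male lists. The shares of all genes were 23.1%, 32.3%, 32.0% and 31.6% in females and 31.0%, 32.9%, 29.1% and 35.8% in males. The proteasome share was still above the share of all genes in each list. The fall from vehicle to day 4 in males, 41 to 30 genes, was thus a rise from 26 to 30 at equal length. List length and treatment cannot be told apart in the deposited lists. The score did not always follow the tags of a peak, so the peaks kept were not always the strongest. On day 6 in females, the Psmb9 peak of 1241 tags had a score of 15. The Psmb6 peak of 96 tags had a score of 28.

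Many proteasome promoters had a peak in every group as deposited, and few did under stricter criteria. A peak within 1 kb was present in all 8 lists for 21 of the 42 proteasome genes (50.0%), and for 17.3% of all autosomal genes. Among CpG-rich genes this share was 28.8%, and 26 of 77 ribosomal protein genes (33.8%) had a peak in all 8 lists. Without the male day 4 list, which rests on the fewest tags, 24 proteasome genes (57.1%) and 20.5% of all genes had a peak in the other 7 lists. When the peak had to overlap the start, 3 proteasome genes and 7.06% of all genes had one in all 8 lists. With a fold over input of at least 4 these were 2 proteasome genes and 4.74% of all genes, with lists of equal length 2 and 2.62%, and with a score of at least 25, 0 and 0%. No proteasome gene lacked a promoter peak in every list, whereas 23.2% of all genes did. A peak was present in 7 lists for 9 proteasome genes, in 6 lists for 5, in 5 lists for 4, in 4 lists for Psmd14, in 2 lists for Psmb11 and in 1 list for Psma8. Psma8 is the alpha subunit of testis and Psmb11 the beta subunit of the thymus, and these were the only proteasome genes with a peak in fewer than 4 lists. The peak of Psma8 in the female day 6 list held 22 tags over 500 bp, at the 2.73 percentile of that list.

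**Figure D2:**
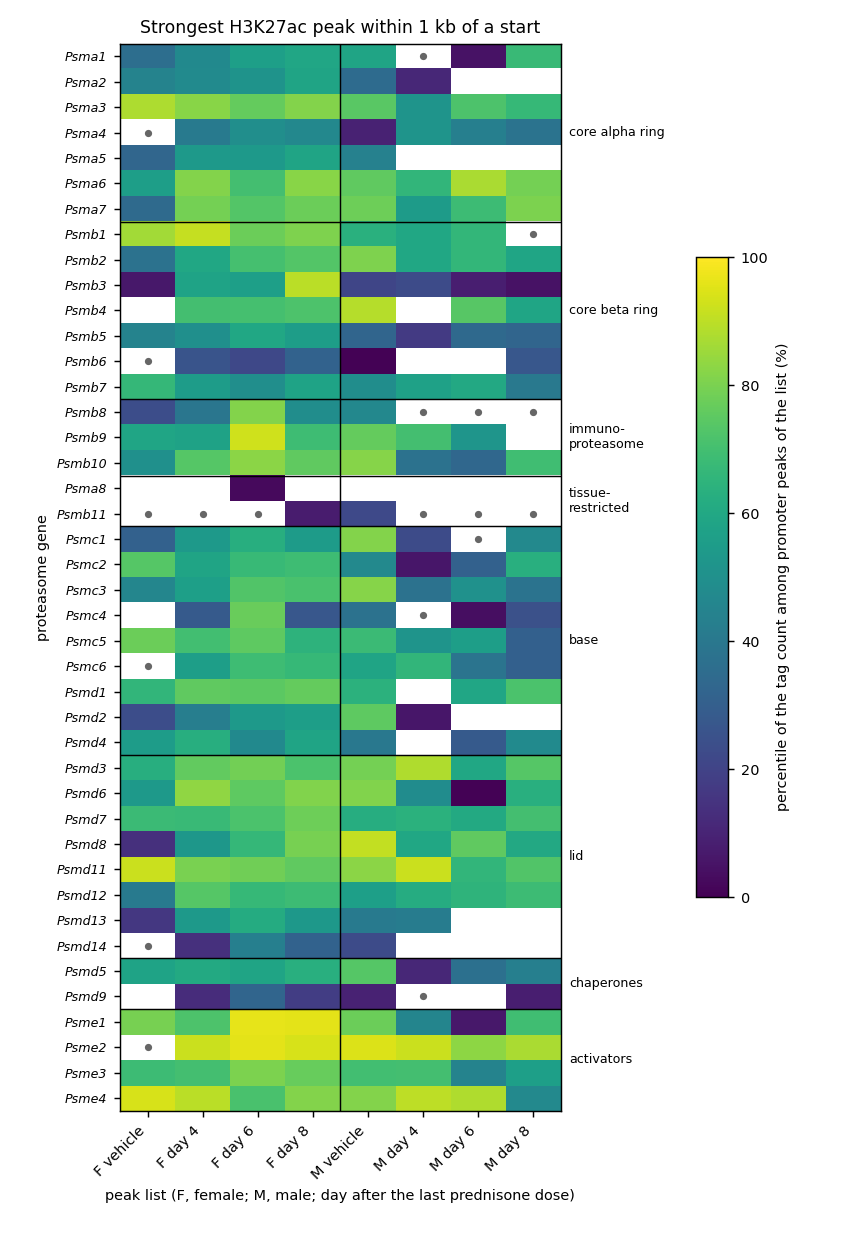
The 42 proteasome genes (y axis, grouped by their place in the complex) in the 8 peak lists (x axis), colored by the percentile of the tag count of the strongest peak within 1 kb of a start among all genes with such a peak in that list. White cells had no peak within 1 kb, and a gray dot marks a peak between 1 and 10 kb. Psma8 and Psmb11 are nearly empty, and Psme2 is in the upper range wherever it has a peak.

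The strength of a promoter peak is given here as its normalized tag count (tags per 10 M tags) and as the percentile of that count among the strongest promoter peaks of all genes in the list that had one. The normalized tag count grows with the length of the peak and the yield of each pulldown. The tag counts given for the catalytic genes thus describe each list on its own. The percentile ranks a gene among those with a promoter peak, from 6055 genes for female vehicle to 14244 on day 6 in females. It therefore also depends on how many genes of a list have a peak. The highest of the medians below, 70.2, belongs to the list with the most such genes. The median percentile of the proteasome genes was 54.7, 59.0, 70.2 and 68.8 in the female lists and 64.3, 53.3, 56.2 and 58.7 in the male lists, above the midpoint in each. Their median percentile of peak length was 41.6 to 54.2, so their peaks were about as long as those of other genes. A peak lay over the start itself for 17 of 32 proteasome genes in the female vehicle list, and for 39 of 40, 41 of 41 and 41 of 41 on days 4, 6 and 8. In males this was 37 of 41 for vehicle and 23 of 30, 20 of 31 and 28 of 32 on days 4, 6 and 8. Among all genes with a promoter peak, 50.8%, 84.0%, 89.0% and 89.4% in the female lists and 71.8%, 63.5%, 62.4% and 72.8% in the male lists had it over the start.

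Coverage around the most upstream start followed the same course. At the start base, peaks covered 38.1% of the proteasome genes in the female vehicle list and 90.5%, 97.6% and 95.2% on days 4, 6 and 8. In males they covered 83.3% for vehicle and 52.4%, 45.2% and 61.9% on days 4, 6 and 8. All genes were covered at the start in 14.2% to 61.9% of cases across the 8 lists. At 1 kb before the start, the proteasome genes were covered in 2.38% to 28.6% of cases and all genes in 3.69% to 25.3%. At 1 kb after the start, the proteasome genes were above all genes in each female list, with 47.6% against 34.4% on day 8. In males they were above all genes on days 4 and 8. They were below for vehicle and on day 6, with 4.76% against 9.91% on day 6. At 1 kb before the start, they were above all genes for female vehicle and on days 4 and 8 in females, with 28.6% against 22.6% on day 8. They were also above on days 4 and 6 in males, and below in the other lists. At 2 kb after the start, the proteasome genes were still above all genes in each female list.

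**Figure D3:**
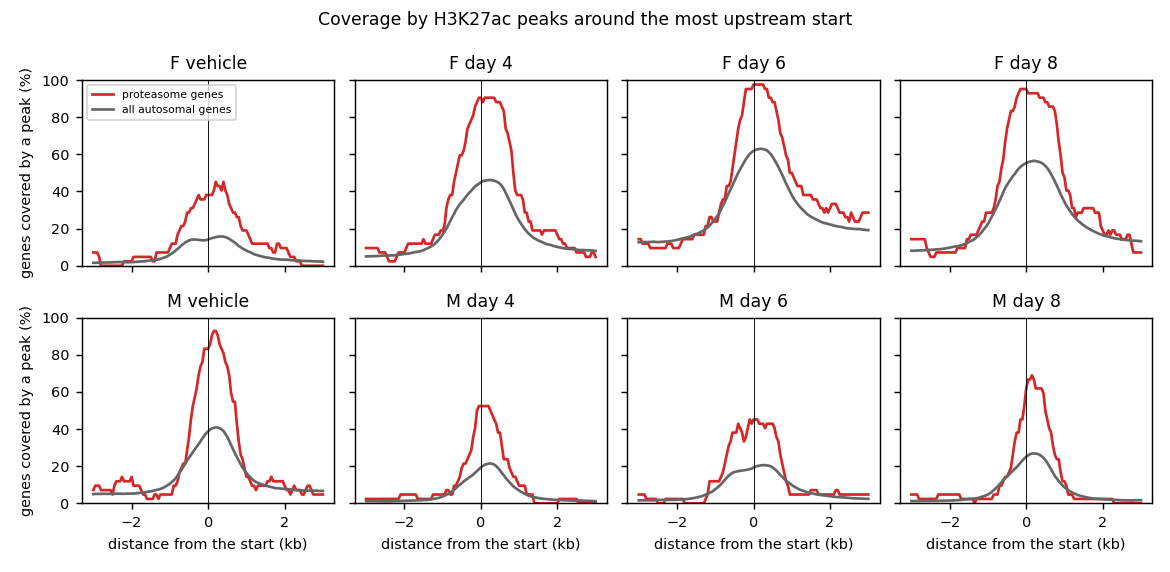
Percent of genes covered by an H3K27ac peak (y axis) at each distance from the most upstream start (x axis, kb, negative values before the start) in each of the 8 lists, for the 42 proteasome genes (red) and all autosomal genes (gray). The red curve exceeds the gray one around the start in each panel and is highest in the female day 6 list, at 97.6%, and in the male vehicle list it reaches 92.9%.

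In the alpha ring, 3 of 7 genes (Psma3, Psma6 and Psma7) had a promoter peak in all 8 lists. Psma6 has 2 annotated starts on chromosome 12 (gene from 55384222 to 55418459), and its strongest peak lay at the more downstream start, 55398825, in every list. Its percentiles were in females 56.2 for vehicle, 81.6 on day 4, 70.2 on day 6 and 82.4 on day 8, and in males 75.5 for vehicle, 65.9 on day 4, 87.2 on day 6 and 79.1 on day 8. For Psma3 (chromosome 12, start 70974623) they were in females 87.6 for vehicle, 82.1 on day 4, 76.3 on day 6 and 81.3 on day 8, and in males 74.4 for vehicle, 51.8 on day 4, 72.1 on day 6 and 67.1 on day 8. For Psma7 (chromosome 2, start 180042464), whose start is 19 bp from that of Ss18l1 on the other strand, they were in females 34.5 for vehicle, 79.0 on day 4, 73.2 on day 6 and 77.5 on day 8, and in males 78.1 for vehicle, 54.8 on day 4, 68.5 on day 6 and 80.3 on day 8. A peak here cannot be assigned to either gene alone. Psma3 and Psma6 were above the middle of every list, and Psma7 was lowest for female vehicle.

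Psma5 was the alpha-ring gene with a peak in the fewest lists, 5. Its start lies at 108256926 on chromosome 3, and its peak percentiles were in females 33.0 for vehicle, 53.6 on day 4, 54.2 on day 6 and 58.3 on day 8, and in males 44.1 for vehicle, with no peak on days 4, 6 and 8 in males. The male vehicle peak held 85 tags over 653 bp. Psma2 lost its peak on days 6 and 8 in males, Psma1 lacked it only on day 4 in males, and Psma4 lacked it only for female vehicle.

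In the beta ring, 4 of 7 constitutive genes (Psmb2, Psmb3, Psmb5 and Psmb7) had a peak in all 8 lists. Psmb3, a noncatalytic subunit, had weak peaks in most lists, with percentiles in females 6.6 for vehicle, 58.0 on day 4, 56.4 on day 6 and 89.8 on day 8, and in males 21.0 for vehicle, 22.8 on day 4, 8.3 on day 6 and 4.8 on day 8. Its female day 8 peak was 7360 bp long and reached 6105 bp before the start, which includes the head-to-head gene Pcgf2 at 2937 bp. Psmb2, also noncatalytic, had percentiles in females 37.8 for vehicle, 59.5 on day 4, 70.5 on day 6 and 73.4 on day 8, and in males 80.6 for vehicle, 59.7 on day 4, 66.2 on day 6 and 58.7 on day 8. Its lowest percentile was that of female vehicle. Psmb1 lacked a peak only on day 8 in males.

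The catalytic genes were followed as 3 pairs of a constitutive subunit and its immunoproteasome replacement. Psmb5 (chymotrypsin-like site, chromosome 14, start 54617995) had a peak in all 8 lists, and its normalized tag counts were in females 15.6 for vehicle, 29.6 on day 4, 126 on day 6 and 71.8 on day 8, and in males 19.9 for vehicle, 14.6 on day 4, 13.5 on day 6 and 12.8 on day 8. The corresponding percentiles were in females 44.8 for vehicle, 49.7 on day 4, 59.5 on day 6 and 55.6 on day 8, and in males 32.5 for vehicle, 17.0 on day 4, 34.0 on day 6 and 32.8 on day 8. The peak lay over the start in 7 lists and ended 5 bp before it in the female vehicle list, and its strength was in the lower or middle part of each list. Psmb8, the subunit that replaces it (chromosome 17, start 34198195), had a peak in 5 lists. Its normalized tag counts were in females 10.9 for vehicle, 23.3 on day 4, 236 on day 6 and 61.4 on day 8, and in males 28.5 for vehicle, with no promoter peak on days 4, 6 and 8 in males. The percentiles of Psmb8 were in females 23.8 for vehicle, 39.1 on day 4, 81.5 on day 6 and 49.1 on day 8, and in males 46.5 for vehicle. Psmb8 was thus seen in both vehicle lists and all female lists, and on days 4, 6 and 8 in males a peak was found only between 1 and 10 kb from its start. The male day 6 peak was that of Psmb9, 9.68 kb away. The male day 8 peak lay within 1 kb of another gene's start, as did a male day 4 peak of 1784 bp.

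Psmb6 (caspase-like site, chromosome 11, start 70525357) had a peak in 5 lists and was among the weakest of the set. Normalized tag counts were in females 16.1 on day 4, 31.3 on day 6 and 37.5 on day 8, and in males 6.33 for vehicle and 11.2 on day 8. In percentiles these were in females 25.9 on day 4, 21.8 on day 6 and 31.3 on day 8, and in males 0.4 for vehicle and 27.1 on day 8. No peak was found for female vehicle or on days 4 and 6 in males. Psmb9, its replacement (chromosome 17, start 34187330), had a peak in 7 lists, all but male day 8. Its normalized tag counts were in females 20.7 for vehicle, 35.3 on day 4, 405 on day 6 and 98.2 on day 8, and in males 54.7 for vehicle, 35.9 on day 4 and 20.4 on day 6. Percentiles of Psmb9 were in females 58.9 for vehicle, 57.8 on day 4, 92.6 on day 6 and 68.9 on day 8, and in males 76.4 for vehicle, 70.0 on day 4 and 52.0 on day 6, and they were above those of Psmb6 in each list in which both had a peak. The start of Psmb9 is 226 bp from that of Tap1, the antigen peptide transporter, on the other strand. In the female vehicle list and on days 4 and 6 in males, the Psmb9 peak lay wholly on the Tap1 side of the Psmb9 start, and Tap1 had a peak in the same 7 lists as Psmb9.

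Psmb7 (trypsin-like site, chromosome 2, start 38643906) had a peak over the start in all 8 lists. Its normalized tag counts were in females 24.3 for vehicle, 33.5 on day 4, 95.7 on day 6 and 76.1 on day 8, and in males 30.0 for vehicle, 27.9 on day 4, 24.3 on day 6 and 15.0 on day 8. As percentiles they were in females 66.7 for vehicle, 55.3 on day 4, 49.4 on day 6 and 58.1 on day 8, and in males 49.1 for vehicle, 57.4 on day 4, 60.5 on day 6 and 40.4 on day 8. Psmb7 was thus neither among the strongest nor among the weakest promoters of any list. Psmb10, its replacement (chromosome 8, start 105938392), also had a peak in all 8 lists, with normalized tag counts in females 17.4 for vehicle, 49.8 on day 4, 244 on day 6 and 116 on day 8, and in males 62.6 for vehicle, 20.0 on day 4, 13.3 on day 6 and 26.2 on day 8. Its percentiles were in females 50.1 for vehicle, 73.8 on day 4, 82.5 on day 6 and 75.6 on day 8, and in males 82.0 for vehicle, 37.8 on day 4, 33.4 on day 6 and 69.4 on day 8. For female vehicle and on day 4 in males, the Psmb10 peak lay within the gene, 386 and 633 bp after the start. Psmb10 ranked above Psmb7 in 5 of the 8 lists, and below it for female vehicle and on days 4 and 6 in males.

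**Figure D4:**
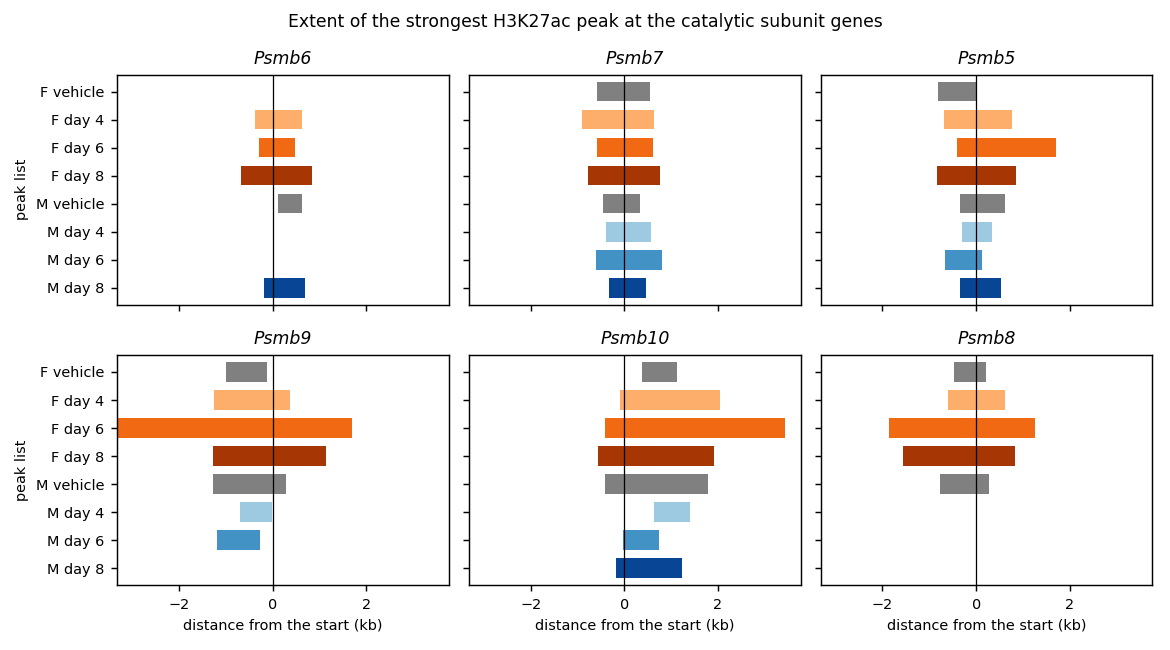
Extent of the strongest H3K27ac peak within 1 kb of the start (x axis, kb from the start, negative before it) in each list (y axis) for the constitutive catalytic genes (top) and the immunoproteasome genes (bottom, each below its counterpart). Psmb7 peaks lie over the start in all 8 lists, and the female day 6 peaks of Psmb9 and Psmb10, of 5011 and 3845 bp, are the longest shown.

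The 3 immunoproteasome genes together had a promoter peak in 3, 3, 3 and 3 cases in the female lists and in 3, 2, 2 and 1 in the male lists. In the female day 6 list all 3 were in the upper part of the list, at percentiles 81.5 to 92.6. Of the genes known to act with them, Irf1, a transcription factor of the interferon response, had a peak in 7 lists. Tap2, the partner of Tap1, had a peak in 6 lists. Nlrc5, the activator of class I antigen presentation genes, had a peak only in the female day 6 list. In that list and on day 8 in females, 2 of 4 leukocyte markers (Cd68 and Csf1r) had a peak. On day 4 in females and for male vehicle 1 did (Cd68). For female vehicle 0 did, and 0 did in the male lists of days 4, 6 and 8. Over all genes, the share with a promoter peak was 71.1% on day 6 in females. It was 32.9%, 32.9% and 36.6% in those 3 male lists. The part of leukocytes in the immunoproteasome peaks was not tested.

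In the base, 3 of 9 genes (Psmc2, Psmc3 and Psmc5, all ATPases) had a peak in all 8 lists. Psmc5 (chromosome 11), whose start is 101 bp from that of Ftsj3, had percentiles in females 77.7 for vehicle, 69.9 on day 4, 75.2 on day 6 and 64.7 on day 8, and in males 68.2 for vehicle, 51.8 on day 4, 56.2 on day 6 and 30.6 on day 8. For Psmc3 (chromosome 2) they were in females 45.9 for vehicle, 56.5 on day 4, 72.9 on day 6 and 71.4 on day 8, and in males 82.0 for vehicle, 37.8 on day 4, 50.6 on day 6 and 38.0 on day 8. For Psmc2 (chromosome 5), 110 bp from Dnajc2, they were in females 73.5 for vehicle, 58.4 on day 4, 67.3 on day 6 and 68.8 on day 8, and in males 46.9 for vehicle, 6.2 on day 4, 31.0 on day 6 and 62.9 on day 8. The Psmc2 peak of day 4 in males held only 9 tags. Psmc4 and Psmd2 had a peak in 6 lists each, the fewest of the base. Psmd2, a scaffold that holds ubiquitin-binding proteins, had percentiles in females 23.8 for vehicle, 42.7 on day 4, 53.7 on day 6 and 56.1 on day 8, and in males 75.2 for vehicle and 6.2 on day 4, and no peak on days 6 and 8 in males. Psmd4, a ubiquitin receptor, and Psmd1, the other large scaffold, lacked a peak only on day 4 in males.

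In the lid, 6 of 8 genes (Psmd3, Psmd6, Psmd7, Psmd8, Psmd11 and Psmd12) had a peak in all 8 lists. Psmd11 (chromosome 11, start 80428615) had percentiles in females 92.0 for vehicle, 80.0 on day 4, 78.2 on day 6 and 75.7 on day 8, and in males 82.7 for vehicle, 92.0 on day 4, 65.8 on day 6 and 72.7 on day 8. Psmd3 (chromosome 11, start 98682554) had percentiles in females 62.6 for vehicle, 76.0 on day 4, 78.7 on day 6 and 71.7 on day 8, and in males 79.2 for vehicle, 87.9 on day 4, 59.6 on day 6 and 73.6 on day 8. Both were above the middle of every list. Psmd13, which shares a promoter with the deacetylase Sirt3 (starts 85 bp apart), had no peak on days 6 and 8 in males. Psmd14, the subunit that cuts ubiquitin from the substrate, was the constitutive gene with a peak in the fewest lists, 4. It had none for female vehicle and none on days 4, 6 and 8 in males.

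Among the activators, Psme1, Psme3 and Psme4 had a peak in all 8 lists and Psme2 in 7, all but female vehicle. Psme4, which caps the core particle without need of ubiquitin (chromosome 11, start 30771775), had percentiles in females 94.0 for vehicle, 89.8 on day 4, 71.4 on day 6 and 81.4 on day 8, and in males 81.6 for vehicle, 90.2 on day 4, 88.0 on day 6 and 46.9 on day 8, and the highest median percentile (84.8) of the genes present in all 8 lists. Psme1 and Psme2 encode the subunits of an interferon-inducible cap and lie close together on chromosome 14 (starts 55578494 and 55591021). Psme2 had percentiles in females 92.1 on day 4, 96.0 on day 6 and 93.8 on day 8, and in males 94.7 for vehicle, 92.0 on day 4, 83.2 on day 6 and 87.4 on day 8. Its more upstream start is 641 bp from that of Rnf31 on the other strand, and Psme2 peaks reached past 1 kb before the start in all 7 lists. Psme1 had percentiles in females 79.3 for vehicle, 72.1 on day 4, 96.2 on day 6 and 95.9 on day 8, and in males 77.4 for vehicle, 45.4 on day 4, 6.4 on day 6 and 69.4 on day 8. Female day 6 and day 8 peaks of Psme1 were 8721 and 5263 bp long and reached 4809 and 4483 bp before the start, over the neighbor Fitm1 at 2820 bp. Of the assembly chaperones, Psmd5 had a peak in all 8 lists and Psmd9 in 5.

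From vehicle to day 4 in females, 8 of the 10 proteasome genes without a promoter peak gained one (37.5% of all genes without one did), and 0 of 32 lost theirs (3.57% of all genes). On day 6, 9 of 10 had gained a peak (59.6% of all genes) and 0 of 32 had lost one (2.11%), and on day 8 the numbers were 9 of 10 (48.9%) and 0 of 32 (2.16%). The 8 genes gained by day 4, Psma4, Psmb4, Psmb6, Psmc4, Psmc6, Psmd9, Psmd14 and Psme2, had a peak on each of days 4, 6 and 8. Psma8 had one only on day 6 and Psmb11 only on day 8. Among all genes, 24.0% had this course of no peak for vehicle and one on each later day, and 29.1% had a peak in all 4 female lists, as did 32 of the proteasome genes. With lists of equal length, 8 of 17 proteasome genes gained a peak by day 4 in females (22.3% of all genes without one) and 6 of 25 lost it (34.4%). On day 6 these were 11 gained (24.3% of all genes without one) and 12 lost (42.5% of all genes with one). On day 8 they were 8 (23.8%) and 8 (42.6%). When the peak had to overlap the start, 22 of 25 gained one by day 4 (37.4% of all genes without one) and 0 of 17 lost it. The 3 comparisons of a sex share its vehicle list.

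In males, 11 of the 41 proteasome genes with a promoter peak for vehicle had none on day 4 (44.8% of all such genes), 10 had none on day 6 (44.7%) and 9 had none on day 8 (38.5%). The only gene without one for vehicle, Psma8, gained none on any day (4.06%, 3.91% and 4.20% of all genes without one did). A peak was present in all 4 male lists for 24 proteasome genes and for 21.0% of all genes. Psma5, Psmb8, Psmb11 and Psmd14 had a peak for vehicle and on no later day. Psma1, Psmb4, Psmc4, Psmd1 and Psmd4 lacked one only on day 4, Psmb6 and Psmd9 on days 4 and 6, Psma2, Psmd2 and Psmd13 on days 6 and 8, Psmc1 only on day 6, and Psmb1 and Psmb9 only on day 8. With lists of equal length these counts also moved, to 6 of 26 lost (33.1% of all genes with one) and 10 of 16 gained (17.7% of all genes without one) from vehicle to day 4 in males. With a fold over input of at least 4, 33 genes had a peak for vehicle and 30 on day 4. By day 4, 8 of 33 were lost (38.4% of all genes with one) and 5 of 9 gained (12.6% of all genes without one). On day 6, 10 genes had a peak, with 25 of 33 lost (69.9%) and 2 of 9 gained (6.62%).

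From vehicle to day 4, 5 proteasome genes gained a peak in females and lost it in males (11.9%), and 11.2% of all genes did so. They were Psmb4, Psmb6, Psmc4, Psmd9 and Psmd14, and no proteasome gene moved in the reverse direction. Psmb4, a noncatalytic beta subunit (chromosome 3, start 94886958), had percentiles in females 70.1 on day 4, 70.6 on day 6 and 71.9 on day 8, and in males 88.7 for vehicle, 73.9 on day 6 and 58.7 on day 8. It had a peak again on days 6 and 8 in males and was above the middle of each list in which it was found. Psmc4, a base ATPase (chromosome 7, start 28050092), had percentiles in females 28.5 on day 4, 77.2 on day 6 and 27.3 on day 8, and in males 37.6 for vehicle, 3.8 on day 6 and 24.7 on day 8. Its female day 6 peak was 7376 bp long and covered much of the gene. Psmd9, a chaperone of base assembly (chromosome 5, start 123228190), had percentiles in females 12.6 on day 4, 32.7 on day 6 and 18.2 on day 8, and in males 9.7 for vehicle and 8.4 on day 8. Psmd14 (chromosome 2, start 61711694) had percentiles in females 13.7 on day 4, 43.1 on day 6 and 31.6 on day 8, and in males 22.8 for vehicle. Apart from Psmb4 and the female day 6 peak of Psmc4, the peaks of these 5 genes were below the middle of their lists. The share of genes with opposite courses was close to that of all genes, and the difference between the sexes was not tested.

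Head-to-head promoters were found for 7 proteasome genes, whose start lay within 1 kb of the start of a gene on the other strand (Psma2, Psma7, Psmb9, Psmc2, Psmc5, Psmd13 and Psme2), and Psma4 had a neighboring start in another arrangement. Of these 8 genes, 3 had a peak in all 8 lists, as did 18 of the 34 others. A peak at such a start cannot be assigned to 1 of the 2 genes. For Psmc2 this holds for the more upstream start, which had the strongest peak in 2 of 8 lists.

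Peaks between 1 and 10 kb from a proteasome start numbered 19, 51, 87 and 69 in the female lists and 57, 11, 11 and 10 in the male lists. Outside the 1 kb around the starts of other genes, they merged into 169 regions, counted for each proteasome gene. Of these, 114 held a peak of only 1 list and 37 of 2 lists. The only region with a peak in all 8 lists lay 3.89 to 7.33 kb before the curated start of Psma3, on chromosome 12 from 70967290 to 70970736 (mm10). It holds a transfer RNA gene, n-TKctt17, and the starts of 2 predicted Psma3 transcripts, at 70969283 and 70969948. A region within Psme4, 5.64 to 9.45 kb after its start, had a peak in 7 lists, all but male day 4, on chromosome 11 from 30777419 to 30781223. Regions in 5 lists lay after the starts of Psma3 and Psmc1. Over all autosomal genes, 66.9% of 65363 regions made in this way held a peak of only 1 list and 17.6% of 2 lists, against 67.5% and 21.9% of the regions of the proteasome genes, so the share found in a single list was close to that of all genes.

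Prednisone-responsive enhancers (PREs) were taken as day 4 peaks that no vehicle peak of that sex overlapped. In females, 9 of the 41 day 4 peaks within 1 kb of a proteasome start had no such overlap, and all 9 overlapped a peak on day 6 and on day 8. By comparison, 50.2% of the 10895 day 4 peaks within 1 kb of any gene had no overlap, and 87.3% of those overlapped a peak on both later days. Within 10 kb, 51 of 92 day 4 peaks had no overlap (55.4%, against 70.1% for all genes). Of the 51, 26 overlapped a peak on day 6 (51.0%, against 68.8%), 23 on day 8 (45.1%, against 61.5%) and 19 on both (37.3%, against 56.6%). In males, 1 of 30 day 4 peaks within 1 kb (at Psmc2) and 7 of 41 within 10 kb lay apart from every vehicle peak, 3.33% and 17.1%, against 11.5% and 25.8% for all genes. Of the 7, 1 overlapped a peak on day 6 and 1 on day 8 (14.3% each, against 10.1% each). In each sex and at both distances, the share of day 4 peaks without a vehicle peak was thus lower at proteasome genes than at all genes, with no test. Vehicle peaks within 1 kb were more frequent at proteasome genes, 76.2% against 30.2% of all genes in females. In males these shares were 97.6% against 56.5%. The lower share of day 4 peaks without a vehicle peak cannot be told apart from this difference.

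Of 27 genes that regulate or assist the proteasome, 26 were matched, and 20, 26, 26 and 26 of these had a promoter peak in the female lists and 24, 17, 19 and 20 in the male lists. Over all autosomal genes, the share was 30.2%, 55.3%, 71.1% and 63.7% in the female lists. In the male lists it was 56.5%, 32.9%, 32.9% and 36.6%. In all 8 lists, 17.3% of all autosomal genes had a peak, as did 14 of the 26. These included Nfe2l1, the transcription factor that raises proteasome genes when the proteasome is inhibited, its relative Nfe2l2, the core assembly factors Pomp, Psmg2 and Psmg4, the polyubiquitin gene Ubb, and Vcp, the ATPase that extracts ubiquitinated proteins. Psmf1, an inhibitor of the proteasome, had a peak in 3 lists, those of days 4, 6 and 8 in females. Adrm1, a ubiquitin receptor of the base, had a peak in 5 lists.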

How the data were processed

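H3K27ac ChIP-Seq reads of 16 libraries, with 8 input libraries, were aligned by the authors to mm10, and HOMER findPeaks (histone style) then called peaks at 2-fold or more over the input of the same group. The submitters' processing notes name Bowtie2 2.2.6, TopHat2 2.1.0 and HOMER. The way in which both libraries of each group entered its list is not given in the sources used here. The authors deposited 1 peak list per group, with the position of each peak, its normalized tag count (a signal scaled to 10 M tags), its tag counts in the H3K27ac and input libraries, its findPeaks score (a number of tags without scaling for depth) and its ratio of tags over input (fold). The deposited p-value against input and the clonal fold change were not used. No values per library were used, and 0 columns of the lists were left without a group. The depth of a list, in megatags (M), came from the steps between low normalized tag counts or from the tags as counted.

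Starts were those of curated RefSeq transcripts of GRCm38.p6 (24860 starts of 21000 protein-coding genes), of which the 20021 autosomal genes were the background. The number of peaks that ran past the end of a chromosome of that assembly was 0. A gene had a peak when a peak came within 1 kb or 10 kb of any of its starts, and its strongest peak was the one with the highest normalized tag count within 1 kb. Promoter sequence came from RefSeq windows of 300 bases, searched on both strands. Lists are single, so counts were described beside those of all genes and no test was made. The genes given with values in every list were the catalytic genes and their replacements, up to 6 genes present in all 8 lists with the highest median percentile, the genes of each group in the most and fewest lists, and those with opposite courses in the 2 sexes. The proteasome genes and the other gene lists were chosen with earlier results of these data known. The other gene lists were regulators and assembly factors (27 genes), partners of the immunoproteasome, cell type markers and ribosomal protein genes. The values of some genes of these lists are not reported here. Alternatives were the distance from a start, stricter fold and score thresholds, lists of equal length, the most upstream start only and a wider choice of genes. The division by CpG content and the count without the male day 4 list were added after the data were seen.

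The search for peaks near starts was tested on simulated lists, where 300 of 300 planted starts were found and 407 of 407 pairs of start and peak were the same as from bedtools 2.31.1. Python 3.11.15, numpy 2.4.6, pandas 2.3.3, pysam 0.24.0, matplotlib 3.10.9 and samtools 1.23.1 were used.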

Additional observations from a re-analysis of the deposited data

Results flagged for a closer look

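The number of proteasome genes with a peak within 1 kb of a start moved in opposite directions in the 2 sexes. Against vehicle, it changed by 8 genes on day 4, 9 on day 6 and 9 on day 8 in females, and by -11, -10 and -9 in males. For peaks within 10 kb, the changes were 3, 4 and 3 genes in females and -6, -7 and -6 in males. With 1 list per group, the difference between the sexes was not tested. Over all genes the share with a promoter peak moved the same way, from 30.2% to 55.3% in females and from 56.5% to 32.9% in males between vehicle and day 4. The number of peaks moved with these counts in both sexes, from 38861 for vehicle to 67503, 123249 and 81696 on days 4, 6 and 8 in females, and from 87600 to 17482, 32188 and 20499 in males. The depth was 27.5 megatags (M) for vehicle and 49.0, 30.6 and 39.7 M on days 4, 6 and 8 in females, all above vehicle. In males it was 31.6 M for vehicle and 7.52, 50.5 and 32.1 M on days 4, 6 and 8. The male depth was lower than for vehicle on day 4 and higher on days 6 and 8. The lowest score was 9 for male vehicle and 7, 25 and 15 on days 4, 6 and 8. In the female lists it was 10, 24, 11 and 16. The median fold over input of the promoter peaks of all genes was 5.07 for male vehicle, higher on day 4 and lower on days 6 and 8. In the female lists it was 6.81, 6.24, 12.3 and 15.4. The part of depth, score and fold in the counts was not tested. List length, these differences and treatment cannot be told apart here.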

How the results depend on the processing

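Distances of 500 bp, 2 kb, 5 kb or 25 kb, the most upstream start only, X-linked genes and symbols with a letter (44 genes), and leaving out the male day 4 list (24 genes in the other 7 lists) moved no count by more than 1.5 times. The counts did depend on how the peaks were thresholded, and the causes were not tested. When a peak had to overlap the start, 17 genes had one for female vehicle and 20 on day 6 in males, 3 genes had one in all 8 lists, and from vehicle to day 4 the gains were 22 genes in females and 1 in males. With a fold over input of at least 4, the numbers were 10 genes on day 6 and 20 on day 8 in males within 1 kb, 12 on day 6 in males within 10 kb, and 2 in all 8 lists, with 2 losses in females and 5 gains in males by day 4. The change from vehicle in males was then -3 genes on day 4 and -23 on day 6, in place of -11 and -10. Over all genes, 41.4% then had a peak within 1 kb for male vehicle, 32.9% on day 4, 16.4% on day 6 and 23.2% on day 8.

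A score of at least 25, the highest of the lowest scores, left within 1 kb 0 genes for female vehicle, male vehicle and male day 4, 20 and 19 on days 6 and 8 in females and 17 on day 8 in males. Within 10 kb it left 0 genes in the same 3 lists, 24 and 25 on days 6 and 8 in females and 18 on day 8 in males. No gene (0) had a peak in all 8 lists, 39 were gained in females and 0 lost in males by day 4, and the change in males was 31 genes on day 6 and 17 on day 8. This score is not scaled for depth, so this threshold removes most of the lists with low scores. Within a list the score also did not always follow the tag count of a peak.

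With lists of equal length (17482 peaks), 24 and 25 genes had a promoter peak on days 6 and 8 in females and 26 for male vehicle, and 2 had one in all 8 lists. By day 4, 6 genes were lost in females, and 10 gained and 6 lost in males. The change from vehicle was then 2 genes on day 4, -1 on day 6 and 0 on day 8 in females, and 4, 1 and 6 in males, so that it reversed on day 6 in females and on each day in males. The genes with opposite courses then numbered 2 in place of 5, and 0 at the stricter score. No paired analysis was possible because the peaks were deposited by group and not by library, and for the same reason no replicate could be left out. The male day 4 list rests on 7.52 M tags, and peaks missing from it were not detected at that depth.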
